A study of Mus musculus with 2 samples.

Results

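The Notch receptors Notch1, Notch2 and Notch3, their ligands Jag1 and Dll1, the target genes Hes1 and Hey1, and the O-fucose enzymes Pofut1, Pofut2 and Lfng were followed in mouse embryonic fibroblasts (MEFs), cells grown from embryonic connective tissue. A probe set belonged to the group if its platform annotation carried exactly 1 of these symbols. All 10 genes were on the array, with 21 probe sets, out of 18193 genes with a probe set of their own. The arrays were 1 of a Fut8-/- culture, homozygous for a disrupted Fut8, and 1 of a Fut8+/+ culture, which carries both normal copies, each labelled as a cell line and grown in the same serum-containing medium without further treatment. The design text names 3 cultures per genotype, whereas the labels give each array here as a single replicate. The embryos' age and strain, and whether a culture came from 1 embryo or several, are not stated in the labels used here. No difference below has a replicate check, so no p-value or error between cultures is given. Sex-linked transcripts also differed between the arrays, so sex and genotype cannot be told apart in any ratio below.

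Notch receptors are large membrane proteins that are cut when a Jagged or Delta-like ligand on a neighbouring cell pulls on them. The freed intracellular part enters the nucleus, joins the DNA-binding protein Rbpj and switches on target genes such as Hes1 and Hey1. The outer part of the receptor is a chain of EGF-like repeats that carry sugars. Pofut1 attaches O-fucose to these repeats, and fringe enzymes such as Lfng add N-acetylglucosamine to that fucose, which changes how the receptor responds to its ligands. Pofut2 attaches O-fucose to thrombospondin repeats, a different protein module, and is not the enzyme for EGF-like repeats. Fut8 itself acts on N-glycans, adding the core fucose, and draws on the same donor sugar, GDP-fucose.

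Signals are given as deposited, in arbitrary units. Ratios are Fut8-/- over Fut8+/+ on the log2 scale after centring, which multiplied the Fut8-/- signals by 1.15, so a fold is larger or smaller than the quotient of the printed signals by that factor. Scaled signals below a floor of 12.3 were raised to it, and a gene counted as measured where its brighter array reached 38.9. Where several probe sets read a gene, the brightest stands for it. Between probe sets that read the same gene above the floor on both arrays (5390 genes) the log2 ratio had an SD of 0.40, which is 1.32-fold. It measures spread between probe sets within this pair of arrays. Technical error and differences between transcripts of a gene are not separated in it.

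Notch1 was higher and Notch3 lower in the Fut8-/- culture, each by more than 2-fold, while the other measured genes of the group lay closer together. Of the 10 genes, 8 were measured; 1 passed the 2-fold limit upwards, 1 passed it downwards and 6 lay between, with log2 ratios of -0.51 to 0.55. Among all 10165 measured genes, 5.92% passed the limit upwards and 8.65% downwards, 14.6% in either direction, so 1 gene each way among 8 is close to what the arrays show in general. The median log2 ratio of the 8 genes was -0.27, and that of all measured genes was -0.01. Dll1 and Hey1 did not reach the measured limit.

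**Figure D1:**
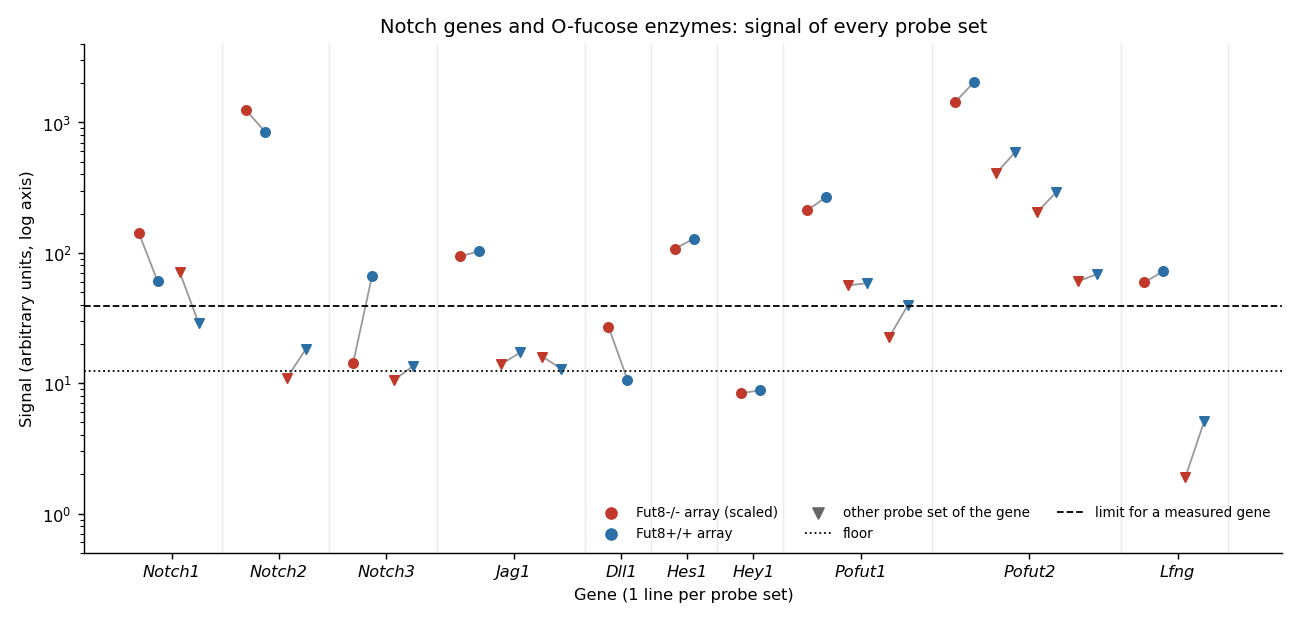
Signal of every probe set of the 10 genes on a log axis in arbitrary units, with the Fut8-/- array, scaled by 1.15, left of the Fut8+/+ array and a line joining the same probe set. Circles mark the probe set that stands for the gene, the dotted line is the floor of 12.3 and the dashed line the measured limit of 38.9; both Notch1 probe sets are higher on the Fut8-/- array, and the brighter Notch3 probe set is lower on it.

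The receptor gene Notch1 read 124 in Fut8-/- and 60.5 in Fut8+/+ and was 2.36-fold higher (log2 ratio 1.24). Its second probe set read 61.6 in Fut8-/- and 29.0 in Fut8+/+, 2.45-fold higher. The probe sets thus gave the same direction and almost the same size. With the measured limit raised to the 75th percentile Notch1 and Notch3 no longer counted as measured. Of all measured genes, 4.06% had a log2 ratio as high as that of Notch1 or higher. Notch1 is a receptor of many cell types, endothelial cells among them. Of 8 endothelial markers 2 were measured, and the list summed to a scaled signal of 254 in Fut8-/- and 315 in Fut8+/+, with Pecam1, Tie1 and Emcn below the floor on both arrays. The 2 measured ones lay on either side of 0, Eng at 0.46 and Egfl7, which is also the gene next to Notch1, at -0.56.

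Notch2 had the signals 1082 in Fut8-/- and 852 in Fut8+/+, 1.46-fold higher. Its second probe set lay below the floor in Fut8-/- (9.50) and at 18.3 in Fut8+/+, opposite in direction, and did not reach the measured limit. The Notch2 difference is close to the spread between probe sets and depends on which one is read. With the median over both probe sets the log2 ratio was -0.01.

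Notch3, the receptor best known from the mural cells around blood vessels, had a signal of 12.4 in Fut8-/- and 66.3 in Fut8+/+, 4.65-fold lower (log2 ratio -2.22). The Fut8-/- signal lay just above the floor once scaled. Of all measured genes, 2.30% had a ratio as low or lower. The second probe set was dim on both arrays, with 9.17 in Fut8-/- and 13.5 in Fut8+/+, below the measured limit, and gave a bound of at least 1.10-fold lower. The brighter probe set has the suffix _s_at, which in Affymetrix's naming marks probes shared by several transcripts, so a contribution of another transcript was not tested. With the floor at the 60th percentile the Notch3 log2 ratio was -0.77, under 2-fold, and with the median over both probe sets -1.18.

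Some markers of mural and smooth muscle cells were lower as well. Of 7 such markers 4 were measured, 3 of them lower in Fut8-/- by 2-fold or more (8.65% of all measured genes were) and 0 higher by that much. The list summed to a scaled signal of 194 in Fut8-/- and 579 in Fut8+/+. The actin-binding protein gene Tagln had 20.2 in Fut8-/- and 158 in Fut8+/+. The pericyte proteoglycan gene Cspg4 had 49.5 in Fut8-/- and 206 in Fut8+/+. Desmin (Des) read 10.2 in Fut8-/- and 55.9 in Fut8+/+, whereas smooth muscle actin (Acta2) was within 2-fold (log2 ratio -0.64). Pdgfrb, kept in the fibroblast list but also a pericyte marker, was higher, with 626 in Fut8-/- and 342 in Fut8+/+ (log2 ratio 1.08). Myh11, Rgs5 and Cnn1 lay below the floor on both arrays. The part of these cells in the Notch3 value was not tested; fewer cells of a type and less RNA per cell cannot be told apart in such samples.

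By their medians, the genes on either side of Notch1 and Notch3 did not shift with them. Nearest to Notch1 on chromosome 2, 10 measured genes were read, 5 on each side in the RefSeq order of assembly GRCm38.p6. Their median log2 ratio was -0.10. Of these 10, 0 were at least 2-fold higher, beside 5.92% of all measured genes, and 1 was at least 2-fold lower. Among the 10 nearest to Notch3 on chromosome 17, the median was 0.13. Of those, 0 were at least 2-fold lower, beside 8.65% of all measured genes. At such shares 0 of 10 is not an unusual count. The gene beside Notch3, Rrp1b, was 2.28-fold higher. The medians of all measured genes were 0.08 for chromosome 2 (794 genes) and 0.12 for chromosome 17 (490 genes). For Notch2, with a log2 ratio of 0.55, the 10 nearest measured genes had a similar median, 0.45. The median of chromosome 3 (519 genes), which carries Notch2, was 0.23.

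**Figure D2:**
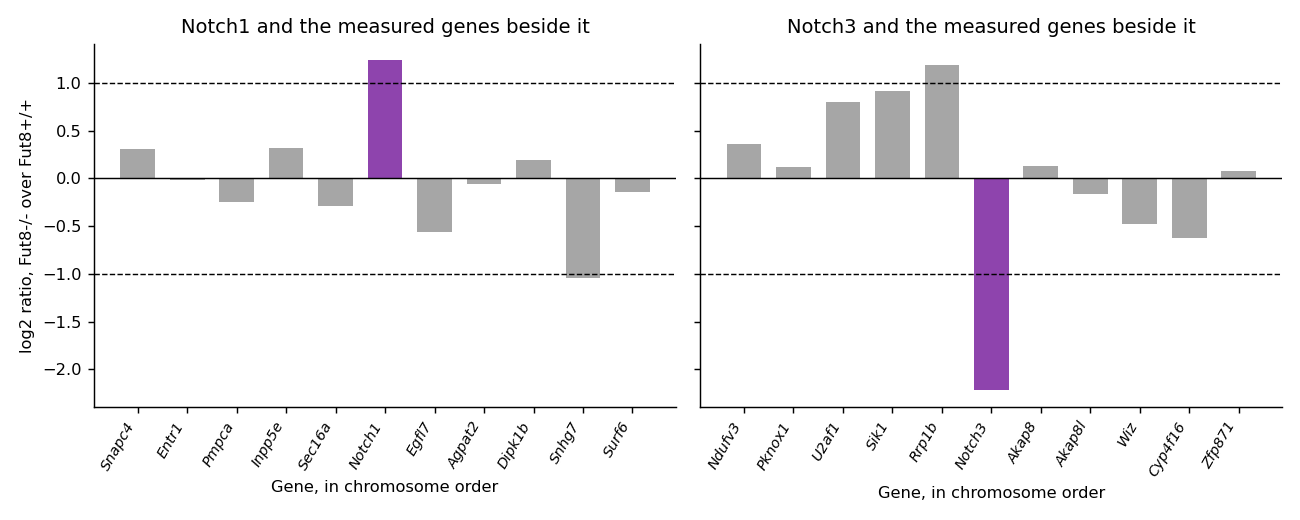
Log2 ratio of Fut8-/- over Fut8+/+ for Notch1 (left panel) and Notch3 (right panel), in purple, and for the 5 nearest measured genes on each side in chromosome order, in grey; dashed lines mark 2-fold. Notch1 at 1.24 and Notch3 at -2.22 stand beyond their neighbours, which run from -1.05 to 0.31 and from -0.62 to 1.19.

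The promoters of Notch1 and Notch3, the 2 receptors that passed 2-fold, are shown, and neither held a motif searched here. That of Lfng, a gene within 2-fold, is shown because it was the only window with a match. The windows are the 250 bases before the annotated start, 5′ to 3′ on the gene's strand, from RefSeq, build GRCm38.p6. Notch1 is chr2:26503823-26504072 on the minus strand, Notch3 chr17:32166891-32167140 on the minus strand and Lfng chr5:140607091-140607340 on the plus strand. Capitals mark the motifs searched on both strands, GTGGGAA, bound by Rbpj, and CACGTG, the E-box bound by Hey proteins among others.
Notch1: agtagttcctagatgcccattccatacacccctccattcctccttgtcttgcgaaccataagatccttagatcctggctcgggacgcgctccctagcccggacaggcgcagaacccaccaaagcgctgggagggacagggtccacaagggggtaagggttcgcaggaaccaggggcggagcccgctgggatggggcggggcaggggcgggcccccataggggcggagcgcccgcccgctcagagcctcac
Notch3: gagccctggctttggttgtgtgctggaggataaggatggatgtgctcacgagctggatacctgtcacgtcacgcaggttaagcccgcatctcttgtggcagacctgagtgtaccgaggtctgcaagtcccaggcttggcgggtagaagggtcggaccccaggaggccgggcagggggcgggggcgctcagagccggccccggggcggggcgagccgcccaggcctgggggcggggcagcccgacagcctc
Lfng: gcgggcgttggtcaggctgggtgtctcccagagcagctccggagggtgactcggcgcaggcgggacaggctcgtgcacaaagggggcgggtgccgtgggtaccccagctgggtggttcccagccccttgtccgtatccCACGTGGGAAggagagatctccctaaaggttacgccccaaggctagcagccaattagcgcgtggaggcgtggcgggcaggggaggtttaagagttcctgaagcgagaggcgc
RefSeq windows were found for 8 of the 10 genes, 9 windows in all because Dll1 has a pair of starts. The genes without a window were the targets Hes1 and Hey1, so these were not searched. GTGGGAA was in 1 of the 9, that of Lfng, starting 109 bases before the gene's start, and CACGTG in the same 1, starting 112 bases before it. These matches overlap, so that the letters form 1 run. Of 32851 promoter windows of that length, 5.42% held GTGGGAA and 6.02% held CACGTG. A match is a run of letters and not a measured binding site. The G and C content of the 9 windows ran from 56% to 80.4%.

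The ligand gene Jag1 differed little between the genotypes. Its brightest probe set read 81.4 in Fut8-/- and 103 in Fut8+/+, a log2 ratio of -0.14. Its other probe sets, both dim, gave -0.30 and 0.31, on either side of 0. Dll1, the other ligand, read 23.6 in Fut8-/- and 10.7 in Fut8+/+ (below the floor). It was at least 2.21-fold higher by these signals but did not reach the measured limit of 38.9, so it is not counted. Dll1 is known mainly from the embryo's somites and nervous system.

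The transcriptional repressor gene Hes1, a direct target of Notch in many tissues, had 93.0 in Fut8-/- and 128 in Fut8+/+, a log2 ratio of -0.26 (1.20-fold lower), within the spread between probe sets. Hey1, a related repressor, lay below the floor on both arrays, with 7.29 in Fut8-/- and 8.79 in Fut8+/+, and has no ratio. Of the 2 target genes in the group, 1 could therefore be compared, and it lay within 2-fold.

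Pofut1, the enzyme that puts O-fucose on Notch, was 1.27-fold lower in Fut8-/- at its brightest probe set, with 183 in Fut8-/- and 268 in Fut8+/+ (log2 ratio -0.34). The other probe sets gave -0.05 and -0.82, so all 3 were below 0 with a wide spread. The fringe gene Lfng had 51.5 in Fut8-/- and 72.5 in Fut8+/+ (log2 ratio -0.29); its second probe set was below the floor on both arrays. Pofut2 was lower at each of its probe sets. The brightest read 1247 in Fut8-/- and 2044 in Fut8+/+ (log2 ratio -0.51), and the next 2 gave -0.54 and -0.50. The dimmest of its 4 probe sets gave -0.19. The probe sets at -0.51 and -0.54 have the suffix _x_at, which in Affymetrix's naming marks probes that may also bind other sequences. Such binding was not tested. Those at -0.50 and -0.19 do not carry this suffix. The 3 O-fucose enzyme genes were thus each below 0 and within 2-fold. Leaving aside the second Lfng probe set, all 8 of their probe sets gave such ratios. These 8 are repeat readings of 3 genes on 1 pair of arrays, not separate results. Ratios this low or lower were common: 28.0% of all measured genes for the value of Pofut1, 20.2% for Pofut2 and 31.3% for Lfng. The median of all measured genes was -0.01. With 3 genes on 1 pair of arrays and ratios this common, a shared decrease of these enzymes cannot be read from the sign.

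Other genes of the pathway were read from lists of their roles. Of 59 genes, 56 were on the array under their own name and 43 were measured; 1 passed the limit upwards (2.33%, against 5.92% of all measured genes) and 5 downwards (11.6%, against 8.65%). Together they were past 2-fold about as often as measured genes in general, 14.0% against 14.6%. Their median log2 ratio was -0.29.

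**Figure D3:**
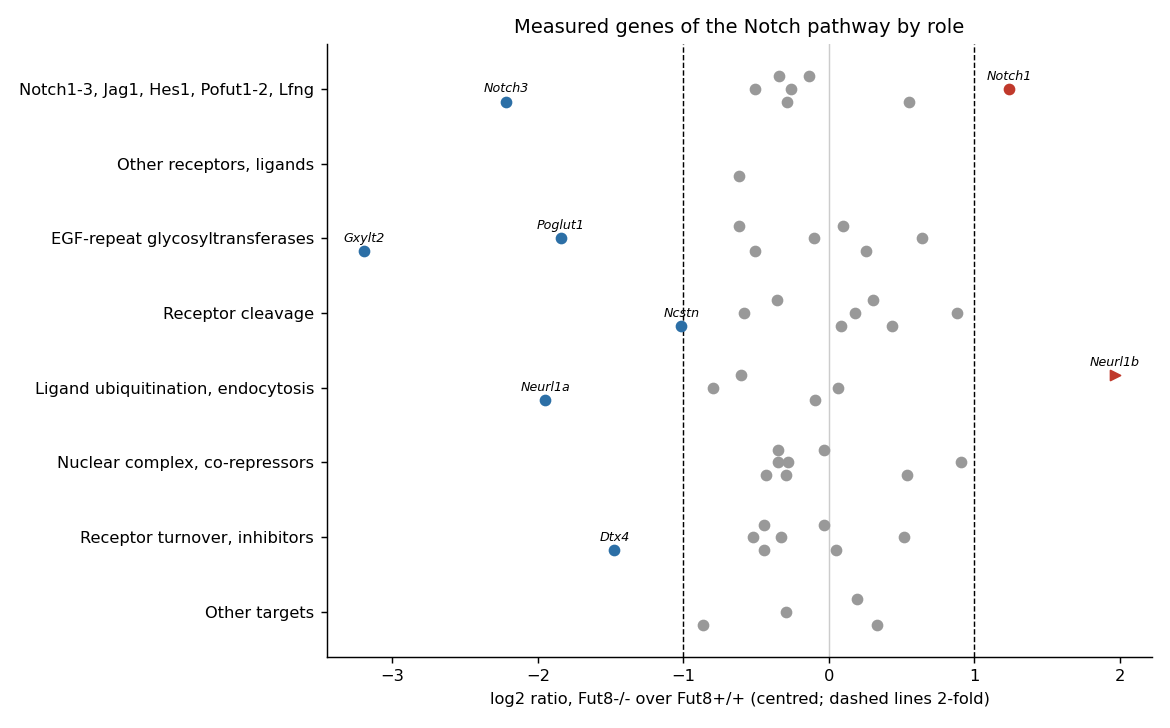
Log2 ratio of Fut8-/- over Fut8+/+ for the 8 measured genes of the group (top row) and the 43 measured genes of the other Notch pathway lists, by role, without the genes of thrombospondin repeats; dashed lines mark 2-fold, red dots lie above the upper line, blue below the lower line, grey between, and a triangle is a lower bound. Among the genes drawn, Gxylt2 at -3.19 lies farthest to the left and Neurl1b, at least 1.97, farthest to the right.

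Of the enzymes that build O-glucose, another sugar of EGF-like repeats, 2 were past 2-fold and both were lower in Fut8-/-. Poglut1, which attaches O-glucose to Notch, was 3.59-fold lower in Fut8-/-, with 107 in Fut8-/- and 441 in Fut8+/+ at its only probe set. Gxylt2, which adds xylose to that glucose, was 9.16-fold lower, with 19.4 in Fut8-/- and 205 in Fut8+/+, also at 1 probe set; its log2 ratio of -3.19 was -2.39 with the floor at the 60th percentile. Its paralogue Gxylt1, which catalyses the same step, read 251 in Fut8-/- and 311 in Fut8+/+ (log2 ratio -0.10). Xxylt1, which adds the next xylose, had a log2 ratio of -0.62. Poglut2, which glucosylates other positions of EGF-like repeats, read 1320 in Fut8-/- and 978 in Fut8+/+ (log2 ratio 0.64), and Poglut3 had -0.51. Eogt, which attaches O-linked N-acetylglucosamine to these repeats, had 0.10. Of the other fringes, Rfng had 0.25 and Mfng was not measured. Of 8 measured EGF-repeat glycosyltransferases, 2 passed 2-fold downwards and 0 upwards (median -0.30), against 8.65% and 5.92% of all measured genes.

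Among 8 measured genes of receptor cleavage, 1 was past 2-fold (12.5%, close to the 14.6% of all measured genes). This was Ncstn, which encodes the gamma-secretase subunit nicastrin, 2.02-fold lower with 28.6 in Fut8-/- and 66.6 in Fut8+/+; over the 9 processing settings its log2 ratio ran from -1.22 to -0.77, on both sides of 2-fold. The sheddase gene Adam10 read 1644 in Fut8-/- and 1676 in Fut8+/+ (log2 ratio 0.18), and the gamma-secretase subunit gene Psenen had -0.36. In the nucleus, 0 of 8 measured genes passed 2-fold in either direction. Rbpj, the DNA-binding partner of the receptor's intracellular part, read 540 in Fut8-/- and 793 in Fut8+/+ (log2 ratio -0.35), the co-activator gene Maml1 had -0.29, the acetyltransferase gene Kat2a 0.54 and the deacetylase gene Hdac1 -0.28.

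The neuralized genes, whose ubiquitin ligases act on Notch ligands, differed in opposite directions. Neurl1a was 3.87-fold lower, with 55.1 in Fut8-/- and 246 in Fut8+/+, and all 4 of its probe sets with a ratio were lower; the median over all 6, of which 2 were below the floor on both arrays, was -0.92, under 2-fold. Neurl1b was at least 3.90-fold higher, with 41.7 in Fut8-/- and 10.9 in Fut8+/+, at 1 probe set; with the floor at the 60th percentile its log2 ratio was 0.30. Mib1, the main ligase of this step, read 489 in Fut8-/- and 977 in Fut8+/+ (log2 ratio -0.79) at its brightest probe set, and its 3 probe sets ran from -0.79 to -0.07. The endocytic adaptor gene Epn2 had a log2 ratio of -0.09. Dtx4, a deltex family ligase of the receptor, was 2.78-fold lower, with 73.8 in Fut8-/- and 236 in Fut8+/+, and its second probe set was 2.20-fold lower. The inhibitor gene Numb had a log2 ratio of -0.52 and the ligase gene Itch 0.05.

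Further targets gave no common direction. Of 9 on the array 4 were measured and 0 of these passed 2-fold. Among all measured genes 14.6% did in either direction, so 0 of 4 is not an unusual count. The cyclin gene Ccnd1 read 915 in Fut8-/- and 1919 in Fut8+/+ (log2 ratio -0.86), and Myc 591 in Fut8-/- and 542 in Fut8+/+ (0.33). Nrarp, a feedback inhibitor induced by Notch, read 27.8 in Fut8-/- and 13.4 in Fut8+/+, 2.39-fold higher (log2 ratio 1.26) but below the measured limit. Its other probe set gave a log2 ratio of 0.24, within 2-fold. Hey2 was below the floor on both arrays. Of the 6 other receptors and ligands only Dlk2, a ligand without the DSL domain, was measured (log2 ratio -0.62), and Notch4, Jag2, Dll3, Dll4 and Dlk1 were not.

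On the Pofut2 side, B3glct, which adds glucose to the O-fucose of thrombospondin repeats, had 231 in Fut8-/- and 446 in Fut8+/+ (log2 ratio -0.74). Of 9 measured genes for proteins with such repeats, 2 passed 2-fold upwards and 1 downwards (median 0.39), against 5.92% and 8.65% of all measured genes. Thbs2, the gene for thrombospondin-2, was at least 32.7-fold lower, with 5.95 in Fut8-/- and 402 in Fut8+/+, and its other probe sets were at least 14.6-fold and at least 13.3-fold lower. Its paralogue Thbs1 read 1133 in Fut8-/- and 916 in Fut8+/+ (log2 ratio 0.51). Adamtsl4 was 2.71-fold higher and the properdin gene Cfp 2.76-fold higher (log2 ratio 1.47, and 0.73 with the median over its 2 probe sets, 1 of them below the floor on both arrays), while the aggrecanase gene Adamts5 had -0.89. The transporter genes Slc35c1, for GDP-fucose, and Slc35c2 had log2 ratios of 0.48 and 0.15.

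**Figure D4:**
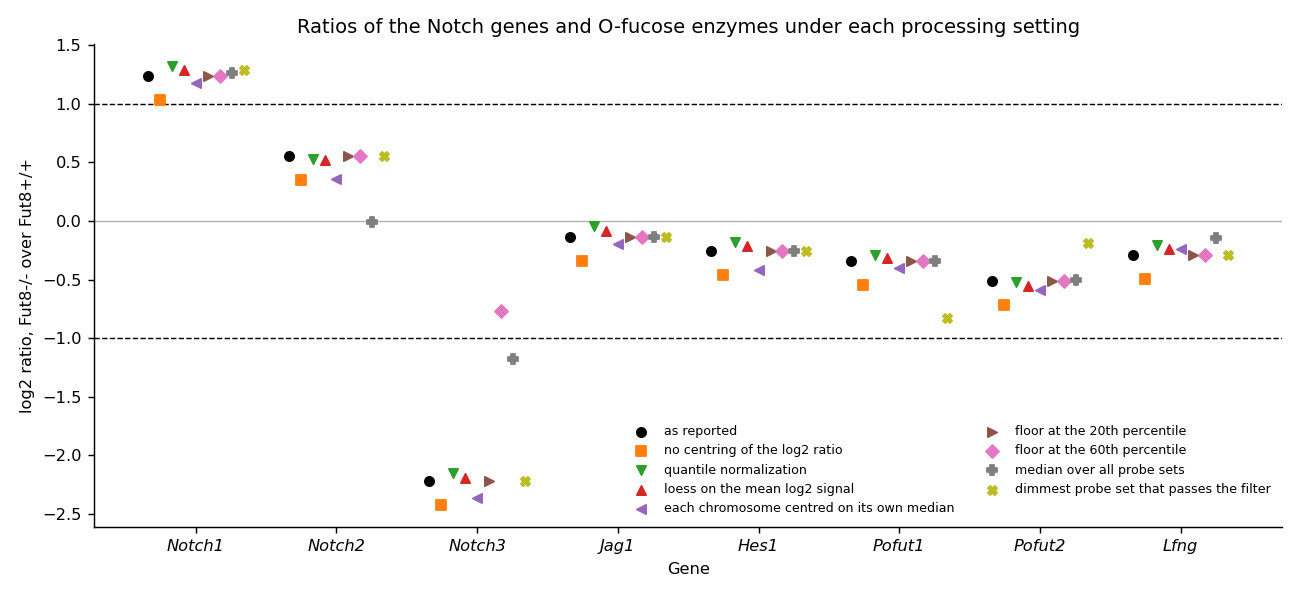
Log2 ratio of Fut8-/- over Fut8+/+ for the 8 measured genes of the group, with 1 symbol for each of 9 processing settings and dashed lines at 2-fold. Notch1 stays between 1.03 and 1.32, Notch3 ranges from -2.42 to -0.77, and Notch2 reaches -0.01.

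The arrays also differed in ways that go beyond the Notch genes. Fut8 read 11.7 in Fut8-/- and 191 in Fut8+/+, 14.2-fold lower; the labels do not say whether its probe set lies in the disrupted part. The Y-linked gene Eif2s3y read 2845 in Fut8-/- and 7.06 in Fut8+/+, and Xist 15.2 in Fut8-/- and 656 in Fut8+/+. The Y-linked genes Kdm5d and Uty read 655 and 413 in Fut8-/- and were below the floor in Fut8+/+. By these transcripts the Fut8-/- culture was male and the Fut8+/+ culture female. Sex and genotype therefore cannot be told apart in any ratio given here, those of Notch1 and Notch3 included. Of 14 fibroblast markers 10 were measured, with Vim at 11110 in Fut8-/- and 11471 in Fut8+/+. Of the measured ones 5 were at least 2-fold lower (50%, against 8.65% of all measured genes). Prrx1 read 7.26 in Fut8-/-, below the floor, and 221 in Fut8+/+. The others were Fn1 (log2 ratio -1.71), Col5a1 (-1.59), Col1a1 (-1.38) and Pdgfra (-1.19). The receptor gene Pdgfrb was the 1 higher by that much, and Dcn was below the floor on both arrays. Of 6 neural markers 4 were measured and 3 were at least 2-fold lower (75%, against the same 8.65%). The neural list summed to scaled signals of 217 in Fut8-/- and 815 in Fut8+/+, and Sox10 was below the floor on both arrays. Of 8 epithelial markers 3 were measured, 2 at least 2-fold higher and 1 lower, against 5.92% and 8.65% of all measured genes. The epithelial list summed to 355 in Fut8-/- and 116 in Fut8+/+, with Cdh1 and Krt18 below the floor on both. Of 6 leukocyte markers 2 were measured and 0 passed 2-fold (168 in Fut8-/- and 230 in Fut8+/+), and Ptprc was below the floor on both. The part of these differences in the Notch values was not tested.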

How the data were processed

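Biotin-labelled RNA of 1 Fut8-/- and 1 Fut8+/+ culture was read on Affymetrix mouse arrays. The authors deposited linear intensity values for each probe set, made with GCOS (the Affymetrix array software) per the submitters' processing notes. Version, signal algorithm, scaling target and detection calls: not given in the sources used here. Of 45101 probe sets, 64 controls were left out; median signals were 16.9 (Fut8-/-) and 20.5 (Fut8+/+).

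Ratios were taken on the log2 scale and shifted by their median, -0.20, over those probe sets that exceeded the pooled 40th percentile on both arrays. Floor and measured limit were the pooled 40th and 60th percentiles after scaling. Probe sets with 1 gene symbol in the platform annotation were used (34945, whereas 932 had several). The gene identifiers of 34741 probe sets matched the RefSeq table of GRCm38.p6. With 1 array per genotype there was no test, and the number of arrays limits the precision. Genes were counted by a fixed 2-fold limit. The steps were tested on simulated data (Python 3.11.15, NumPy 2.4.6, pandas 2.3.3, statsmodels 0.14.6).

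Genes and lists were chosen with earlier results of these data known. Named genes were the 10 genes, all list genes past 2-fold and the 2 brightest of each list; Xxylt1, Poglut3, Eogt, Rfng, Mfng, Rbpj, Maml1, Nrarp, Hey2, Rrp1b and the unmeasured ligands were added after their values were seen. Alternatives were 11 settings of centring, normalization, floor, filter, probe set and fold limit.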

Additional observations from a re-analysis of the deposited data

How the results depend on the processing

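Of 66 recomputed counts, 53 stayed within 1.5 times the reported one. With the floor at the 60th percentile, 1 gene of the group was past 2-fold in place of 2, as 0 were lower, and 0 other pathway genes were higher in place of 1. With the measured limit at the 75th percentile, where 3 of the 10 genes were measured, 0 of the group were past 2-fold, 0 higher and 0 lower, and 0 other pathway genes were higher. Without a filter on the brighter array, 2 genes of the group and 2 other pathway genes were higher in place of 1 each. With the median over all probe sets, 3 other pathway genes were lower in place of 5. With a 1.5-fold limit, 15 other pathway genes were past it, 4 higher and 11 lower, beside 13.99% and 17.15% of all measured genes. Of 71 recomputed ratios of the group, 4 moved by more than the probe-set SD and 0 changed the sign of a gene past 2-fold; the 4 were Notch3 (-0.77 with the higher floor, -1.18 with the median over probe sets), Notch2 (-0.01 with that median) and Pofut1 (-0.82 at its dimmest measured probe set). Leaving out the centring lowered the median over all measured genes to -0.23, with 4.09% higher and 11.8% lower, and left 1 gene of the group in each direction. No paired analysis was possible because each genotype has 1 array. Dim signals limit Notch3 in Fut8-/-, Dll1 and Hey1.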

Other observations

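Some genes that lie close to Notch pathway genes in the RefSeq order of GRCm38.p6 differed by more than 2-fold; they were picked after their values were seen. Thbs2 is the 4th measured gene to one side of Dll1. Tbx15, a T-box factor gene 4 measured genes from Notch2, was 4.24-fold higher, with 852 in Fut8-/- and 231 in Fut8+/+. Psmb8, an immunoproteasome subunit gene near Notch4, was 10.6-fold lower, with 68.8 in Fut8-/- and 839 in Fut8+/+, and the antigen transporter gene Tap1 beside it was 2.23-fold lower. Cntn3, a contactin gene 2 measured genes from Gxylt2, was at least 3.18-fold lower, with 0.665 in Fut8-/- and 39.0 in Fut8+/+. The 10 measured neighbours of Neurl1a all lay within 2-fold. Of all measured genes 14.6% were past 2-fold in either direction. Neither these neighbours past 2-fold nor a set of 10 without any is therefore unusual.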
